A study of Mus musculus with 36 samples.

Results

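The genes of hepatic glycogen synthesis and breakdown described here are 9 protein-coding genes, Gys2, Gbe1, Gyg, Ugp2, Pygl, Phka2, Phkg2, Ppp1r3b and Ppp1r3c. They were found by symbol among the 24346 gene symbols of the deposited tables, and all 9 had 1 row in each table. The liver RNA came from wild-type male C57BL/6JRj mice of 16 weeks, housed 5 per cage with food at all times under 12 h of light. One group was exposed for 4 weeks to chronic intermittent hypoxia (IH), a model of sleep apnea in which the inspired oxygen fraction cycled 60 times per hour between 21% and 5% during the light phase, from zeitgeber time (ZT) 0, when lights turn on, to ZT8. The control group received matched cycles of air in the same hours (normoxia). Livers of 3 mice per condition were taken every 4 h at ZT0, ZT4, ZT8, ZT12, ZT16 and ZT20, which gave 36 libraries, 18 per condition, each from a different mouse. ZT4 and ZT8 fall within and at the end of these hours of exposure.

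Glycogen is the store of glucose in the liver, filled after feeding and emptied between meals. UGP2 makes the UDP-glucose from which chains are built, glycogenin (Gyg) starts a chain on itself, the liver glycogen synthase GYS2 lengthens it and the branching enzyme GBE1 adds branches. The liver phosphorylase PYGL removes glucose units as glucose-1-phosphate, once it has been phosphorylated by phosphorylase kinase, whose liver form holds the regulatory subunit PHKA2 and the catalytic subunit PHKG2. PPP1R3B and PPP1R3C bring protein phosphatase 1 to the glycogen particle, where it activates the synthase and inactivates the phosphorylase.

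Expression is given as FPKM, fragments scaled to transcript length and library size, a level that allows genes of different length to be compared. Pygl was the most abundant of the 9 transcripts over the day, with a mean of 148 ± 23.5 FPKM over the control libraries and of 174 ± 28.9 FPKM over the IH libraries (SD, n = 18, so that the SD includes the time of day). Ugp2 followed with means of 103 ± 35.8 and 122 ± 37.3 FPKM. Gys2 and Ppp1r3b had means of 67.0 ± 37.9 and 60.5 ± 35.4 FPKM in control against 80.6 ± 42.2 and 76.3 ± 37.6 FPKM in IH. At single times they lay far apart. In control, Gys2 was lower at ZT0 (35.2 against 81.6 FPKM) and higher at ZT8 (107 against 22.8 FPKM). Gbe1 and Ppp1r3c had means of 32.0 ± 7.33 and 27.1 ± 20.3 FPKM in control against 39.1 ± 4.68 and 27.5 ± 15.9 FPKM in IH. In control, Gbe1 was lower at ZT0 (26.4 against 57.1 FPKM) and higher at ZT12 (34.7 against 4.61 FPKM). The kinase subunits were lower, with 6.37 ± 0.843 and 6.59 ± 0.941 FPKM for Phkg2 and 3.65 ± 0.979 and 3.88 ± 1.39 FPKM for Phka2, and Gyg was the lowest at 2.17 ± 0.437 and 2.27 ± 0.694 FPKM in control and IH. The order of the mean levels was the same in both conditions.

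In the mm10 genome, Gys2 lies at chr6:142422613-142473109, Gbe1 at chr16:70313949-70569716, Gyg at chr3:20122084-20155317, Ugp2 at chr11:21321138-21371201 and Pygl at chr12:70190811-70231488. Phka2 is X-linked, at chrX:160502166-160598878, Phkg2 lies at chr7:127573340-127583307, Ppp1r3b at chr8:35375739-35388139 and Ppp1r3c at chr19:36731731-36736653. Gbe1, Phka2, Phkg2 and Ppp1r3b are on the plus strand and the other 5 on the minus strand. In the GENCODE annotation, 21.9% of the exonic bases of Phkg2 are also exonic in Ccdc189 on the opposite strand, so its FPKM is uncertain where reads were counted without regard to strand. Ugp2 and Phka2 share 2.54% and 1.9% of their exonic bases with an antisense transcript, and the other 6 genes share none.

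**Figure D1:**
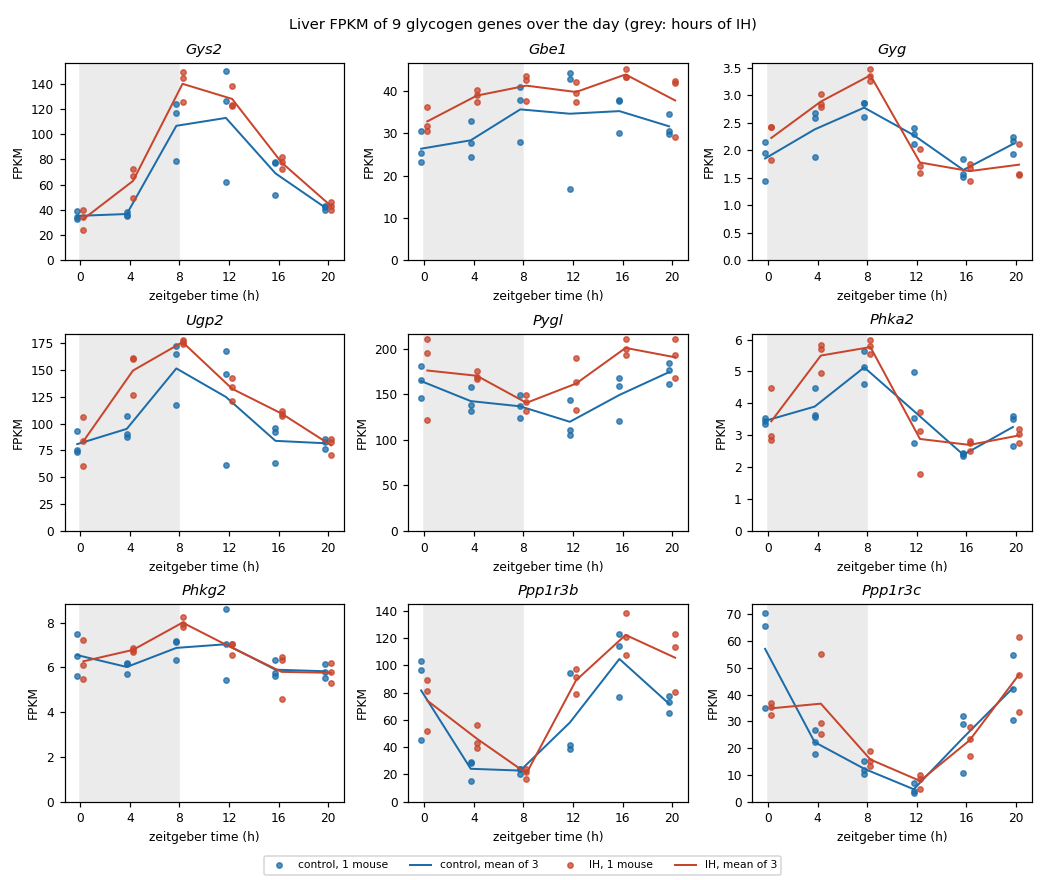
FPKM of the 9 genes (vertical axis, linear from 0) against zeitgeber time (h), with 1 point per mouse and lines through the means of 3 mice, control in blue and IH in red; grey marks the hours of IH. Gys2 was highest at ZT8 and ZT12 in both conditions, Ugp2 at ZT8 and Ppp1r3b at ZT16, and Ppp1r3c was lowest at ZT12.

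Of the 36 libraries, 3 stood apart through acute-phase transcripts. Saa1, an acute-phase gene of hepatocytes, was above 10000 FPKM in control ZT12 replicate 2, control ZT16 replicate 3 and IH ZT0 replicate 2, and above 1000 FPKM in 8 libraries, 6 of control and 2 of IH, among them control ZT4 replicates 1 and 3. The mean of the 9 glycogen genes was lowest in these 3 libraries within their groups, at -0.64, -0.32 and -0.25 on the log2 scale relative to each gene's own mean over all libraries. Control ZT12 replicate 2 also had the highest FPKM sum, 808274 against 561964 to 626371 in the others, and the highest summed level of 5 leukocyte markers, 205 FPKM against a control median of 2.35 FPKM. Defining hepatocyte markers summed to 40257 to 66703 FPKM in every library and 8 of 8 were detected, whereas 5 pancreas markers summed to at most 1.83 FPKM. In bulk liver, fewer hepatocytes and less RNA per hepatocyte cannot be told apart. Results below are given with and without the libraries of high Saa1 where a call depends on them, and their part in the differences was not tested otherwise.

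**Figure D2:**
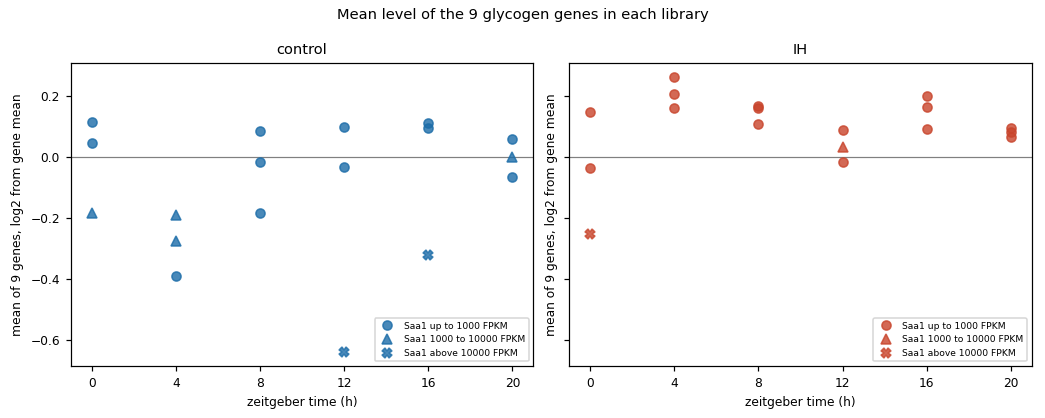
Mean of the 9 glycogen genes in each library, as log2(FPKM + 1) minus each gene's mean over the 36 libraries (vertical axis), against zeitgeber time (h), control on the left and IH on the right; the symbol gives the Saa1 level. The 3 libraries with Saa1 above 10000 FPKM were the lowest of their groups, at -0.64 and -0.32 in control and -0.25 in IH, and all 3 control libraries at ZT4 lay below all 3 IH libraries.

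The first question was which of these transcripts oscillate over the day in each condition. In control liver, 7 of 9 genes were rhythmic at a nominal P of 0.01 in a limma fit of a 24-h cosine to log2(FPKM + 1), against 20.0% of the 13215 genes tested. Gys2, Gyg, Ugp2 and Phka2, which serve synthesis or activate the phosphorylase, peaked in the second part of the light phase or at its end, whereas Pygl and the targeting subunits Ppp1r3b and Ppp1r3c peaked at night. Gbe1 (P = 0.284) and Phkg2 (P = 0.293) did not pass (n = 18 libraries). In IH liver, 7 of 9 genes were rhythmic against 39.9% of all genes, now with Phkg2 (P = 0.000839) and without Pygl (P = 0.0258), and Gbe1 did not pass here either (P = 0.0356, n = 18). The percentages are the background against which both counts are to be read.

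On the log2 scale, Ppp1r3c and Ppp1r3b had the largest fitted amplitudes in control, and in IH those of Ppp1r3c, Ppp1r3b and Gys2 were within their errors of each other. Ppp1r3c, at 57.1 ± 19.2 FPKM at ZT0 in control, was at 4.61 ± 2.00 FPKM at ZT12 (SD, n = 3). The fitted cosine had a log2 amplitude of 1.49 ± 0.18 (SE) with its peak at ZT22.7. This is a peak-to-trough ratio of 7.85 in FPKM + 1, not in FPKM. In IH the means at ZT0 and ZT12 were 34.8 ± 2.19 and 7.74 ± 2.66 FPKM, the amplitude was 1.08 ± 0.16 and the peak was at ZT23.1. The 3 control mice at ZT0 had 35.1, 65.7 and 70.4 FPKM (values within a group are given in ascending order), and the 3 IH mice had 32.5, 35.2 and 36.8 FPKM. These groups overlapped through a single control mouse, 1 of the 8 with Saa1 above 1000 FPKM. The log2 difference at ZT0 was -0.64 with all libraries and -0.90 without those 8, and neither passed. Those 8 also include IH ZT0 replicate 2, so mice of both conditions were left out at this time.

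Ppp1r3b was highest at ZT16, with 105 ± 24.9 FPKM in control against 122 ± 15.5 FPKM in IH, and lowest at ZT8, with 22.8 ± 1.95 and 20.8 ± 3.63 FPKM. Its amplitude was 1.08 ± 0.17 in control and 1.06 ± 0.15 in IH, and its fitted peak lay at ZT18.3 and ZT18.2. The fitted rhythm of this gene thus had nearly the same size and phase in both conditions.

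Gys2 had another timing. Its means in control were 35.2 ± 3.22 FPKM at ZT0, 36.7 ± 1.75 at ZT4, 107 ± 24.0 at ZT8, 113 ± 45.6 at ZT12, 68.9 ± 14.6 at ZT16 and 41.9 ± 1.91 at ZT20. In IH they were 32.8 ± 8.03, 62.9 ± 12.2, 139.8 ± 12.6, 128 ± 9.17, 77.4 ± 4.91 and 42.9 ± 3.20 FPKM at the same times. The amplitude was 0.89 ± 0.12 (P = 1.91e-06) with a peak at ZT11.5 ± 0.50 in control, and 1.06 ± 0.07 (P = 7.35e-11) with a peak at ZT10.5 ± 0.25 in IH (SE, n = 18). Both conditions thus had high Gys2 before and at the light-dark transition, and the mean at ZT4 was near that of ZT0 in control and between those of ZT0 and ZT8 in IH.

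Ugp2 had its fitted peak at ZT8.8 ± 1.06 in control and ZT8.5 ± 0.46 in IH, earlier than Gys2, with amplitudes of 0.41 ± 0.11 and 0.57 ± 0.07. Phka2 peaked at ZT6.3 and ZT5.4 with amplitudes of 0.31 ± 0.07 and 0.46 ± 0.08, and Gyg at ZT7.2 and ZT5.4 with 0.19 ± 0.05 and 0.36 ± 0.05. Phkg2 had the lowest amplitude in control, 0.09 ± 0.05, and one of 0.19 ± 0.04 in IH with a peak at ZT7.5. Pygl had a peak at ZT22.0 and an amplitude of 0.23 ± 0.06 in control, and ZT19.2 and 0.20 ± 0.07 in IH, and Gbe1 was the flattest of the abundant genes with 0.17 ± 0.11 and 0.14 ± 0.05. The fitted amplitude was higher in IH for Gys2, Gyg, Ugp2, Phka2 and Phkg2 and lower for the other 4 genes. Without the 3 libraries of highest Saa1 this direction turned for Gys2 (1.04 in control against 1.00 in IH) and for Pygl (0.21 against 0.24). In a cosine fitted to FPKM itself, Pygl (23.8 against 24.6 FPKM) and Ppp1r3b (37.5 against 46.6 FPKM) also had the higher amplitude in IH. The log2(FPKM + 1) scale understates the amplitudes of low genes such as Phka2 and Gyg. Relative to the mean level of the FPKM fit, the amplitude in IH was 41.7% for Phka2, 38.5% for Ugp2 and 37.0% for Gyg.

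**Figure D3:**
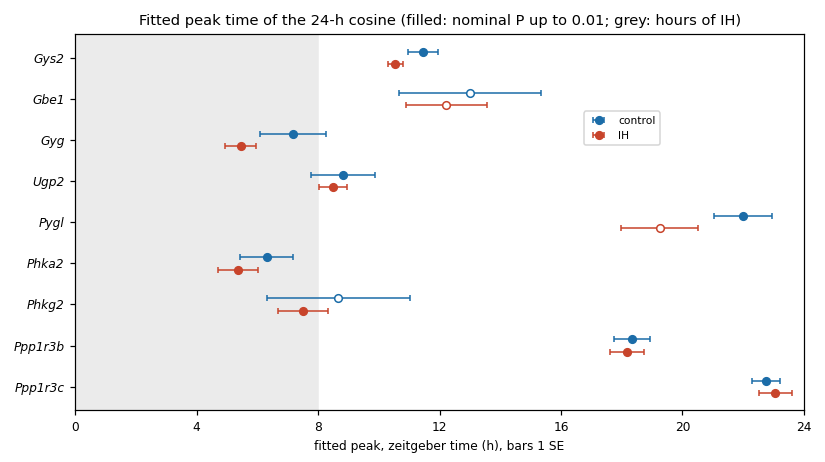
Fitted peak time of the 24-h cosine (horizontal axis, zeitgeber time in h, bars 1 SE) for the 9 genes, control in blue and IH in red, filled where the nominal P was 0.01 or less; grey marks the hours of IH. Gyg, Phka2, Ugp2 and Gys2 had their fitted peaks between ZT5.4 and ZT11.5, and Ppp1r3b, Pygl and Ppp1r3c between ZT18.2 and ZT23.1.

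A gene called rhythmic in one condition alone is not thereby shown to differ, so the cosines were compared directly. None of the 9 genes passed this interaction test between the conditions (limma, 36 libraries, adjusted p of 0.05), with adjusted p from 0.92 to 0.996. Of all genes tested, 0% passed, so this result does not set the 9 genes apart. At an unadjusted P of 0.05, 1 of 9 genes passed against 4.91% of all genes. That gene was Gyg (P = 0.0239, n = 36). Phkg2, rhythmic in IH alone, had P = 0.248 and Pygl, rhythmic in control alone, had P = 0.239 (n = 36). The separate calls also moved when the libraries of highest Saa1, 3 in all, were left out. In control, Gbe1 was then rhythmic (P = 0.000123) and Gyg was not (P = 0.0142, limma, n = 16 libraries). Pygl was then rhythmic in IH (P = 0.000785, limma, n = 17 libraries). Of all genes, 27.4% were then rhythmic in control and 42.4% in IH. Leaving out single libraries raised P in control up to 0.0247 for Gyg and 0.0255 for Ugp2 (limma, n = 17 libraries). Over 32 alternative settings, single libraries included, the control call was lost in 19 for Gyg, 13 for Ugp2 and 1 for Pygl. It was kept in all 32 for Gys2, Phka2, Ppp1r3b and Ppp1r3c.

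The next question was whether the level differed during the hypoxic hours, at ZT4 and ZT8 together (6 libraries per condition). All 9 genes had a higher fitted level in IH, and 4 of 9 passed the limma test at an adjusted p of 0.05, against 6.05% of all genes higher and 1.93% lower in IH. These were Gys2, Ugp2, Phka2 and Phkg2, which are 2 enzymes of synthesis and 2 of the subunits of the kinase that activates breakdown. The median log2 difference of the 9 genes was 0.34, and that of all genes tested was 0.04.

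Gys2 showed the largest of these differences. At ZT4 the control mice had 35.3, 36.2 and 38.7 FPKM and the IH mice had 49.1, 67.1 and 72.5 FPKM. At ZT8 the values were 79.1, 117 and 124 FPKM in control against 126, 145 and 149 FPKM in IH. All IH mice were above all control mice at both times. The difference was 0.58 ± 0.13 on the log2 scale (SE), a ratio of 1.49 (95% interval of the log2 difference 0.30 to 0.85, adjusted p = 0.0243). This ratio and those given for the other called genes are of FPKM + 1.

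Ugp2 had 87.8, 90.4 and 107 FPKM in control against 127, 160.3 and 161 FPKM in IH at ZT4. At ZT8 it had 117, 165 and 172 FPKM in control against 174, 176 and 178 FPKM in IH. The groups did not overlap at either time, but at ZT8 the highest control mouse came within a few FPKM of the lowest IH mouse. The log2 difference was 0.44 ± 0.11, a ratio of 1.36 (interval 0.19 to 0.68, adjusted p = 0.0374).

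The kinase subunits differed less. Phka2 had 3.59, 3.63 and 4.47 FPKM in control against 4.96, 5.71 and 5.82 FPKM in IH at ZT4, without overlap, and 4.60, 5.12 and 5.65 against 5.53, 5.78 and 5.97 FPKM at ZT8, with overlap. Its log2 difference was 0.28 ± 0.07 (ratio 1.21, adjusted p = 0.0391). Phkg2 had 5.71, 6.16 and 6.20 FPKM in control against 6.70, 6.79 and 6.87 FPKM in IH at ZT4, and 6.32, 7.13 and 7.18 against 7.80, 7.96 and 8.27 FPKM at ZT8. The groups of Phkg2 were separate at both times, with a log2 difference of 0.17 ± 0.04 (ratio 1.13, adjusted p = 0.0312), the smallest called. As given above, antisense reads cannot be told apart in Phkg2 if strand was not used.

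The other 5 genes did not pass. The closest were Gyg (log2 difference 0.21 ± 0.06, adjusted p = 0.0509) and Gbe1 (0.34 ± 0.10, adjusted p = 0.0555). Pygl had 0.15 ± 0.07 (interval 0.01 to 0.29, adjusted p = 0.162), so a difference of the size seen for Gys2 lay outside its interval. Ppp1r3c and Ppp1r3b had larger fitted differences, 0.48 ± 0.18 and 0.40 ± 0.22, with wide intervals (0.09 to 0.88 and -0.07 to 0.87) and adjusted p of 0.115 and 0.248.

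These 4 calls were narrow. No gene of the 9 was called when IH ZT4 replicate 2, IH ZT4 replicate 3, control ZT4 replicate 1 or control ZT4 replicate 3 was left out, and 1 was called without IH ZT4 replicate 1, IH ZT8 replicate 1, IH ZT8 replicate 2 or control ZT8 replicate 1. When the 8 libraries with Saa1 above 1000 FPKM were left out, which leaves 1 control mouse at ZT4, the number was 0, with 0.227% of all genes called. The log2 difference was then 0.50 for Gys2 (adjusted p = 0.154), 0.31 for Ugp2 (adjusted p = 0.223), 0.18 for Phka2 (adjusted p = 0.21) and 0.17 for Phkg2 (adjusted p = 0.142).

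**Figure D4:**
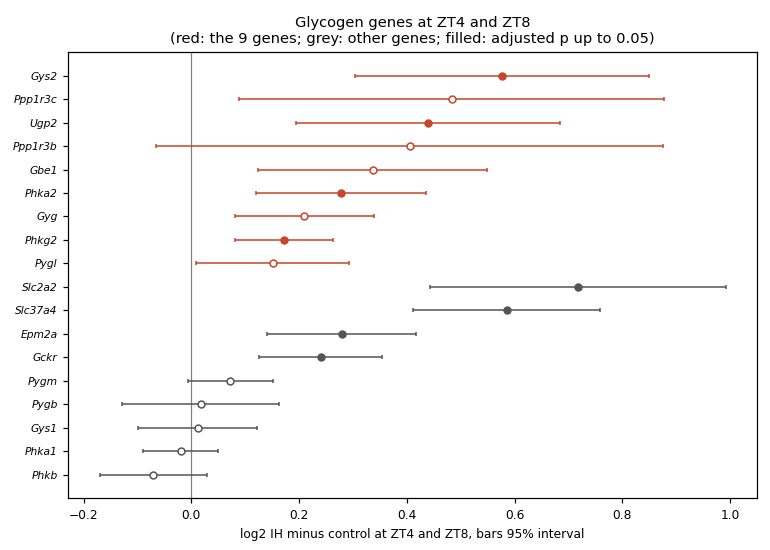
Difference between IH and control at ZT4 and ZT8 on the log2(FPKM + 1) scale (horizontal axis, bars 95% interval) for the 9 genes in red and, in grey, the other genes of glycogen and glucose-6-phosphate metabolism that passed the test or are isozymes or partner subunits of a member, filled where the adjusted p was 0.05 or less. All 9 glycogen genes lay above 0 with Gys2 highest at 0.58, and Slc2a2 and Slc37a4 were highest among the others at 0.72 and 0.59.

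To see when in the day the conditions parted, IH was compared with control at each time point (3 mice against 3, limma fit over all 36 libraries). None of the 54 comparisons of a gene at a time point passed the adjusted threshold, against 0.324% over all genes and time points, and 11 of 54 had an unadjusted P of 0.05 or less, against 10.2%. At ZT4, where 1.16% of all genes passed, the smallest adjusted p were those of Gys2 (log2 difference 0.74 ± 0.22, adjusted p = 0.083) and Ppp1r3b (0.95 ± 0.30, adjusted p = 0.104). At that time 8 of 9 genes had all IH mice above all control mice, against 26.7% of all genes. The exception was Ppp1r3c, with 17.9, 22.2 and 26.6 FPKM in control against 25.4, 29.2 and 55.2 FPKM in IH.

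Ppp1r3b at ZT4 had 15.3, 28.1 and 28.8 FPKM in control against 39.5, 42.8 and 56.1 FPKM in IH. At ZT8 the values were 20.5, 23.6 and 24.1 FPKM in control against 16.7, 22.0 and 23.6 FPKM in IH. The separation of this gene at ZT4 was thus followed by overlap at ZT8, where the gene had its lowest mean in both conditions.

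At ZT8, Gys2, Gyg, Ugp2 and Phkg2 had all IH mice above all control mice, 4 of 9 genes against 11.0% of all genes. At ZT12 Gyg was the only one of the 9 without overlap and it was lower in IH, 1 of 9 against 6.74% of all genes lower. At ZT16 Gbe1, Ugp2, Pygl and Phka2 were separate and higher in IH, 4 of 9 against 10.0%, and at ZT20 Ppp1r3b alone, 1 of 9 against 11.8%. No gene of the 9 was separate at ZT0, against 4.59% of all genes higher and 6.21% lower. Pygl had its widest gap at ZT16, with 121, 159 and 168 FPKM in control against 193, 199 and 211 FPKM in IH (log2 difference 0.44 ± 0.16, unadjusted P = 0.00974, adjusted p = 1), and the lowest control value there was that of replicate 3, a library with Saa1 above 10000 FPKM. At ZT12 the log2 difference of Pygl was 0.43 ± 0.16 (adjusted p = 0.111) and that of Ppp1r3b 0.73 ± 0.30 (adjusted p = 0.141).

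**Figure D5:**
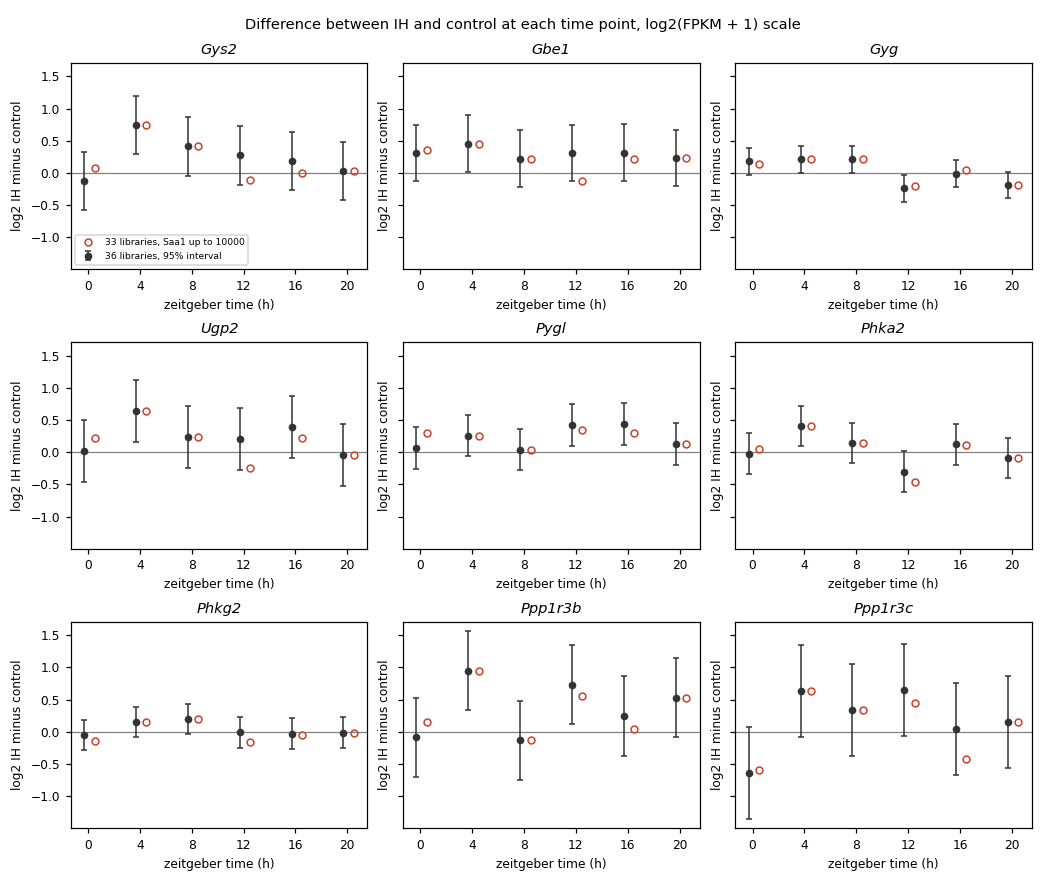
IH minus control on the log2(FPKM + 1) scale (vertical axis) at each zeitgeber time (h) for the 9 genes, as filled points with 95% intervals from all 36 libraries and as open points without the 3 libraries with Saa1 above 10000 FPKM. The largest difference at ZT4 was that of Ppp1r3b, 0.95, followed by that of Gys2, 0.74. The points for Gys2, Gbe1 and Ugp2 at ZT12 moved from above to below 0 without control ZT12 replicate 2. Some points at ZT0 and ZT16 also changed sign without the other libraries of high Saa1, among them Gys2 at ZT0 and Ppp1r3c at ZT16.

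The spread that these comparisons share is set in part by the libraries of high Saa1. Without the 3 highest, 10.2% of all genes passed at ZT4, and of the 9 genes 4 did: Gys2 (log2 difference 0.74, adjusted p = 0.00227), Ugp2 (0.64, adjusted p = 0.00397), Gbe1 (0.45, adjusted p = 0.0308) and Ppp1r3b (0.95, adjusted p = 0.0347). None of the 3 libraries is from ZT4, so the differences themselves were as before and only their errors were smaller. Without all 8 libraries above 1000 FPKM, Ppp1r3b alone passed at ZT4 (1.51, adjusted p = 0.0288), against 0.916% of all genes. That difference rests on a single control mouse of 15.3 FPKM, the lowest of the 3 at ZT4, which is assumed to vary like the mice of the other groups. Leaving out control ZT12 replicate 2 gave 3 calls, Gys2, Ugp2 and Gbe1 at ZT4. Leaving out control ZT12 replicate 3, a library of low Saa1 (31.2 FPKM), gave 2 calls, Pygl and Ppp1r3b at ZT12. The number of calls over all genes and time points, 257 with all libraries, ran from 26 without IH ZT4 replicate 2 to 3303 without control ZT12 replicate 3.

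Over the whole day the log2 differences were smaller than at ZT4 and ZT8 for all of the 9 genes but Pygl (0.15 at ZT4 and ZT8). The fitted level was higher in IH for all 9 genes, none passed at an adjusted p of 0.05 (limma, against 0.356% of all genes), and 5 of 9 had an unadjusted P of 0.05 or less, against 10.8%. The log2 difference was 0.31 ± 0.08 for Gbe1 (adjusted p = 0.097), 0.23 ± 0.07 for Pygl (adjusted p = 0.151), 0.37 ± 0.13 for Ppp1r3b (adjusted p = 0.276), 0.25 ± 0.10 for Gys2 (adjusted p = 0.321) and 0.24 ± 0.10 for Ugp2 (adjusted p = 0.343). For Gyg, Phka2 and Phkg2 it was between 0.03 and 0.04, with intervals reaching from -0.10 to 0.19 at most. The median was 0.23 for the 9 genes and 0.03 for all genes tested.

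Without the 3 libraries of highest Saa1, Pygl (0.22, adjusted p = 0.0191) and Gbe1 (0.23, adjusted p = 0.0475) passed over the whole day, against 1.38% of all genes. One gene passed when control ZT12 replicate 1, 2 or 3 or IH ZT0 replicate 2 was left out. In Gbe1 the control mouse with the highest Saa1 had 16.9 FPKM at ZT12, and the other 2 had 42.9 and 44.2 FPKM, above the IH mice at 37.5, 39.6 and 42.2 FPKM.

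Whether the difference between IH and control changes with time of day was tested without a cosine as well (limma interaction with the time point). None of the 9 genes passed, against 0.136% of all genes, and Gyg had the smallest P (0.00637, adjusted p = 0.176). Gyg had 1.88, 2.59 and 2.67 FPKM in control against 2.79, 2.83 and 3.03 FPKM in IH at ZT4. At ZT8 it had 2.61, 2.85 and 2.86 FPKM in control against 3.25, 3.35 and 3.48 FPKM in IH, and at ZT12 2.11, 2.30 and 2.41 FPKM in control against 1.59, 1.72 and 2.02 FPKM in IH. The IH mice were thus all above the control mice at the first 2 of these times and all below at the last. Next were Phka2 (P = 0.0579) and Ppp1r3b (P = 0.0901, n = 36).

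Of 34 further genes of glycogen metabolism and its link to glucose-6-phosphate, 30 were expressed highly enough to be tested, and Phkg1, Ppp1r3a, Ppp1r3d and Ppp1r3f were below a mean of 0.1 FPKM. At ZT4 and ZT8 the median log2 difference of the 30 was 0.07. By the adjusted threshold, none was lower in IH and 4 of 30 were higher, against 1.93% and 6.05% of all genes. They were the glucose transporter Slc2a2 (0.72 ± 0.13, adjusted p = 0.0144), the glucose-6-phosphate transporter of the endoplasmic reticulum Slc37a4 (0.59 ± 0.08, adjusted p = 0.00648), the glycogen phosphatase laforin Epm2a (0.28 ± 0.06, adjusted p = 0.0267) and the glucokinase regulator Gckr (0.24 ± 0.05, adjusted p = 0.0245). Slc37a4 was also higher over the whole day (0.35 ± 0.06, adjusted p = 0.00182), which no one of the 9 genes was with all libraries. The number of the 30 genes called at ZT4 and ZT8 ran from 2 to 6 without single libraries and from 0 to 5 in the other settings.

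The forms of these enzymes known from other tissues were low in liver and none of them passed at ZT4 and ZT8. Gys1, the muscle synthase, had means of 0.663 ± 0.201 FPKM and 0.697 ± 0.181 FPKM in the control and IH libraries (SD, n = 18), against 67.0 and 80.6 FPKM for Gys2. Pygb and Pygm, the brain and muscle phosphorylases, had 0.868 and 0.290 FPKM in control, against 148 FPKM for Pygl. Of the other subunits of phosphorylase kinase, Phka1 had 0.863 FPKM in control. Phkb, the regulatory beta subunit, is not a form tied to another tissue and had 3.00 FPKM in control, near the 3.65 FPKM of Phka2. The log2 differences of Phka1 and Phkb at ZT4 and ZT8 were -0.02 ± 0.03 and -0.07 ± 0.05. Phka2 and Phkg2 were higher in IH at those times while no difference of Phkb was detected (interval -0.17 to 0.03).

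Across the 36 libraries, Gys2 and Ugp2 correlated by r = 0.81, Gyg and Phka2 by 0.76 and Pygl and Ppp1r3c by 0.63 (0.89 in control and 0.39 in IH), whereas Gyg and Ppp1r3b correlated by -0.81 and Gys2 and Ppp1r3c by -0.69 (Pearson, log2(FPKM + 1)). These values describe libraries that share time points and depth, and they carry no test. Among 9812 other genes of at least 1 FPKM, the pattern of Gys2 was most like those of Cyp2a4 and Bnip3 (r = 0.95 for both), that of Gbe1 like those of Pdha1 and Adk (0.92 and 0.89), and that of Ugp2 like those of Auh and Slc2a2 (0.94 and 0.93). Without control ZT12 replicate 2, whose FPKM sum was farthest from the median, the values of Gbe1 were 0.88 and 0.84 and those of Ugp2 0.94 and 0.93. Phka2 was most like Gabarapl1 (0.94), Ppp1r3c like Lrp5 and Adck3 (both 0.91), Ppp1r3b like Plin5 and Vps37b (0.90 and 0.89) and Gyg like Gm16548 and Zkscan17 (0.88 and 0.87). Pygl (Nsmf 0.79, Tmie 0.78) and Phkg2 (Ip6k1 and Med25, both 0.78) had no gene this close.

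The study examined cAMP-responsive regulation and clock factors in these livers, so the promoters were searched for the letters of a cAMP response element and of an E-box. RefSeq promoter sequences (GRCm38.p6, 250 bases before to 50 after the start) were at hand for 7 of the 9 genes, all but Gys2 and Ppp1r3b. Upstream of the start, on both strands, the full element TGACGTCA was in none of the 7, against 1.546% of 32851 promoters, and the shorter TGACG, which is contained in it, was in 1, Pygl, against 17.77%. The E-box CACGTG was in 1, Ppp1r3c, against 6.021%. The core ACGTG of hypoxia response elements, which overlaps the E-box, was in 3, Ppp1r3c, Pygl and Ugp2, against 16.57%. Gyg held TGACG and CACGTG only in the 50 bases after the start, which these counts leave out. The stretches of the 3 genes with a match before the start are shown in the direction of transcription with the matched letters in capitals, and they include the night-peaking Pygl and Ppp1r3c and the day-peaking Ugp2.
Ppp1r3c E-box, chr19:36736683-36736728, minus strand: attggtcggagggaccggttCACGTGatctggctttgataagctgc
Pygl TGACG (read on the other strand), chr12:70227703-70227747, minus strand: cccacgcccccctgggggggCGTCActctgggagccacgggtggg
Pygl ACGTG, chr12:70227790-70227834, minus strand: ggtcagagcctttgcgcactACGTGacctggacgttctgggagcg
Ugp2 ACGTG, chr11:21371412-21371456, minus strand: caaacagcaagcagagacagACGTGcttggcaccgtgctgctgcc
The E-box of Ppp1r3c begins 104 bases before the start, the matches of Pygl 44 and 131 bases and that of Ugp2 169 bases before it. Positions are counted from the RefSeq start, which for Pygl lies inside the GENCODE span given above, downstream of the outer start of that span. A second ACGTG of Ppp1r3c lies 189 bases before the start. A match in letters does not show that a factor binds, and its absence from these windows says nothing of other regions.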

How the data were processed

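Liver RNA of 36 mice was measured by stranded poly(A) RNA sequencing. The authors aligned reads to mm10 with TopHat2 2.1.1 and Bowtie2 and deposited FPKM values from Cufflinks 2.2.1 per library, in 1 table per condition, whose condition was taken from the table's name. Annotation, scaling between libraries and use of strand are not given in the sources used here. Absolute depth is unknown. From the steps between low values, depth relative to the first control library was estimated at 0.835 to 1.385, and precision is lower for Gyg and Phka2 than for abundant genes. All columns were used.

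Values were analysed as log2(FPKM + 1) with limma 3.58.1 (R 4.3.3) for the 13215 genes whose mean reached 0.1 FPKM, and all 9 genes passed this filter. Fold changes are on that scale and understate changes of low genes. A total of 280 symbols on more than 1 row were left out. Rhythm was a 24-h cosine fitted within each condition (moderated F test, nominal P of 0.01, the study's threshold; the study's BIO_CYCLE and Cyber-T were not used here). The other tests used Benjamini-Hochberg adjusted p of 0.05 over all genes tested, two-sided, with the time point as a factor for levels. Same-numbered IH and control libraries were not paired. Scripts were tested on simulated data.

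The members and gene lists were chosen with earlier results of these data known. Named beside the 9 genes are the other glycogen genes past the threshold or sharing a complex or isozyme pair with a member, and the 2 genes most correlated with each member, of which 1 is not reported here. Alternatives were a pseudocount of 0.1, other filters, 3 scalings, the replicate number as a block, thresholds, tests and each library left out; leaving out libraries with high Saa1 was added after seeing the data. Coordinates come from GENCODE M21 by symbol. Python 3.11.15 with matplotlib 3.10.9 made the figures.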

Additional observations from a re-analysis of the deposited data

Results flagged for a closer look

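The difference between IH and control in Gyg, the glycogenin that primes a new glycogen chain, took opposite directions within the day. All 3 IH mice were above all 3 control mice at ZT4 and ZT8 and below them at ZT12, with log2 differences of 0.21 ± 0.10, 0.21 ± 0.10 and -0.24 ± 0.10 (SE). The test of a change of the difference with time gave an unadjusted P of 0.00637 and, adjusted over all genes tested, 0.176 (limma), so it did not pass. The values of Gyg are between 1.44 and 3.48 FPKM, the lowest of the 9 genes.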

How the results depend on the processing

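At ZT4 and ZT8 the number of the 9 genes called was 4, and it was 2 without a filter on low values, 1 after rescaling to a common sum, 1 in a fit over all libraries, 0 without the time factor and 0 without the 8 libraries of Saa1 above 1000 FPKM, with 0 to 5 when single libraries were left out. Over all time points 0 became 3 at a nominal P of 0.01 and 2 without the 3 libraries of Saa1 above 10000 FPKM (0 to 1 without single libraries). At single time points 0 became 3, 4 and 1 at a nominal P of 0.01 and without those 3 or 8 libraries (0 to 3 without single libraries), and the change with time gave 1 at a nominal P of 0.01. Rhythm calls stayed between 5 and 8 in control and 7 and 8 in IH, and the interaction of the cosines gave 0 throughout. The cause of these changes was not tested. The level over all time points turned negative for Gyg with median of ratios (-0.00763) and quantile normalization (-0.00139) and for Phkg2 with median of ratios (-0.00120) and without the 8 libraries (-0.00226), none of them called. Of 2634 recomputed values for 65 results on single genes, 2512 kept direction and call, 79 lost a call, 39 gained one and 4 changed sign. Of the 54 differences at single time points, these results include only the 11 with an unadjusted P of 0.05 or less (limma). Sign changes in the others are not counted, such as those of Gys2 (0.27 to -0.11), Gbe1 (0.31 to -0.13) and Ugp2 (0.21 to -0.24) at ZT12 without the 3 libraries. Results on rhythm, its interaction and the change with time are P values, which have no sign to change.

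Same-numbered libraries of the conditions had a mean residual r of 0.05 over 18 pairs, with 6 over 0.1, among them all 3 at ZT12, so the numbers were not taken to pair them. The replicate block gave 6 rhythmic genes in control, where Ugp2 was lost, and 5 genes called at ZT4 and ZT8, where Gyg was added (adjusted p = 0.0499). Over all genes, 257 calls at single time points became 143 with the block, 1349 without the 3 libraries, 126 without the 8, 430 with quantile normalization, 168 without the filter and 52 after rescaling to a common sum. The 1054 calls at ZT4 and ZT8 became 614 without the filter, 269 in the fit over all libraries, 10 without the time factor and 30 without the 8 libraries, and the 47 over all time points 183 without the 3 and 27 after rescaling. The 18 for the change with time became 36, 54 and 105 with median of ratios, quantile normalization and without the 3 libraries, 9, 8, 4 and 4 with a pseudocount of 0.1, the block, rescaling to a common sum and without the 8 libraries, and 634 at a nominal P of 0.01. Without single libraries these 4 counts ran from 26 to 3303, 231 to 1342, 28 to 157 and 3 to 670.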

Other observations

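Among the 30 other tested genes of glycogen and glucose-6-phosphate metabolism, 10 were rhythmic in control and 22 in IH at a nominal P of 0.01, against 20.0% and 39.9% of all genes. Slc37a4 had the smallest P in both (2.1e-08 and 1.12e-10). None of the 30 passed the interaction test of the cosines, so a rhythm gained in IH was not shown for any of them. Ppp1r3g, a further targeting subunit of protein phosphatase 1, had one of the widest ranges for its level, from 0.0131 to 4.91 FPKM in control and from 0.0197 to 4.35 FPKM in IH.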
